A study of Mus musculus with 6 samples.

Results

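The 10 genes described here encode transcription factors of the heart muscle cell: Gata4, Gata6, Nkx2-5, Tbx5, Tbx20, Mef2a, Mef2c, Mef2d and Hand2, which belong to the core regulators of heart development, and Meis1, a homeobox factor. They were chosen by symbol, each symbol stood for 1 gene, and they were 10 of 27998 genes in the count tables. Levels were taken from single-cell RNA sequencing of cardiomyocytes (CMs) from the left ventricle of C57BL/6J mice at embryonic day 16.5 (E16.5) and at postnatal days 1 (P1) and 5 (P5). Dissociated cells were methanol-fixed, stained with the MF20 antibody against muscle myosin and with the DNA dye Hoechst, and sorted as diploid (2n) or tetraploid (4n), which gave 6 libraries, E16.5-2n to P5-4n, whose values are given with 2n before 4n and the youngest age first. The labels name no engineered allele and no treatment in any group. Each library pooled cells of 3 sorts, each from 1 litter, so that there was 1 library per condition and no replicate error between conditions, and the 2n and 4n libraries of an age came from the same litters. The age field of the E16.5-4n library reads embryonic day 16.6, whereas its title gives E16.5. A 4n gate holds CMs in G2 or M phase, binucleated CMs and CMs with 1 tetraploid nucleus, and the gate alone does not separate them. A clump of diploid cells would also fall in it. The paper examined sorted P5 CMs by microscopy and reports that clumps were scarce.

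GATA, NK2, T-box and HAND factors switch on the heart muscle program in the embryo by binding together near genes of the contractile apparatus, and Nkx2-5, Gata4 and Tbx5 are a well-known trio of such partners. MEF2 proteins bind the same muscle genes, and their activity is restrained by class IIa histone deacetylases. Meis1 is known for holding neonatal CMs out of the cell cycle, in part through inhibitors of cyclin-dependent kinases. The study from which the libraries come asked which transcription factors accompany the proliferation of CMs before birth.

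The libraries held 3678 to 7469 cells and 13213992 to 19714177 unique molecular identifiers (UMIs, 1 for each captured RNA molecule). Cells with at least 1 UMI of each of the CM genes Tnni3, Tnnt2, Tnnc1 and Actc1 were taken as CMs, which left 30733 of 31156 cells, and the 4 genes together held 25355 to 31849 of each 1000000 UMIs. The median CM had 1831 UMIs in P1-2n and 4658 in P5-4n. Libraries also differed in RNA of other cells and in cell cycle activity. CMs with at least 3 UMIs of a fibroblast, endothelial, immune, mural or epicardial marker list made up 2.60%, 22.3%, 2.79%, 34.3%, 6.64% and 13.7% of the libraries in that order. The 10 fibroblast genes, all detected in each library, summed to 162, 856, 152, 979, 276 and 381 UMIs per 1000000 (CPM). A list of 16 mitosis genes, also all detected, summed to 549, 2637, 82.6, 366, 225 and 1345. The 6 atrial markers, some of which ventricles of the embryo also transcribe, summed to 2317 to 2916 CPM at E16.5 and 91.6 to 321 after birth, and the 6 erythroid genes to 5130.3 to 10389 before and 1648 to 2906 after, with Hbb-y at 0 in both P5 libraries. Pairs of libraries shared 17 to 62 cell barcodes.

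In the mouse genome (build GRCm38) the genes other than Gata6 lie at chr14:63198922-63271692 (Gata4, minus strand), chr17:26838664-26845009 (Nkx2-5, minus), chr5:119832668-119885219 (Tbx5, plus), chr9:24718138-24774303 (Tbx20, minus), chr7:67231163-67372858 (Mef2a, minus), chr13:83504034-83667080 (Mef2c, plus), chr3:88142372-88172086 (Mef2d, plus), chr8:57320983-57324633 (Hand2, plus) and chr11:18879817-19018985 (Meis1, minus). None of them overlapped another counted gene on the same strand. The 3 MEF2 paralogs are shown because Mef2c and Mef2d differed between E16.5 and P1 in opposite directions, and the 250 bases upstream of a RefSeq start (build GRCm38.p6) are shown for each, with CpG dinucleotides in capitals, at chr7:67372859-67373108 on the minus strand for Mef2a, chr3:88142122-88142371 on the plus strand for Mef2d and chr13:83503784-83504033 on the plus strand for Mef2c.
Mef2a: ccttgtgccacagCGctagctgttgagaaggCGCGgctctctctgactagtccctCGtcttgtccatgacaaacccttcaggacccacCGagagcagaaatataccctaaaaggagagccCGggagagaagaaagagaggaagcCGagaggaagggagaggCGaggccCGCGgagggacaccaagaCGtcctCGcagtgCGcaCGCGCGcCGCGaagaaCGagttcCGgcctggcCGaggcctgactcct
Mef2d: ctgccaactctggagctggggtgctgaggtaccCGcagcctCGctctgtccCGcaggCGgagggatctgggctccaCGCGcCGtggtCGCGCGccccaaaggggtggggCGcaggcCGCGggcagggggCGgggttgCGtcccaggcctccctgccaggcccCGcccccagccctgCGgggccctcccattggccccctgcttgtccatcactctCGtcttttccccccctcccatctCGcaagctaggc
Mef2c: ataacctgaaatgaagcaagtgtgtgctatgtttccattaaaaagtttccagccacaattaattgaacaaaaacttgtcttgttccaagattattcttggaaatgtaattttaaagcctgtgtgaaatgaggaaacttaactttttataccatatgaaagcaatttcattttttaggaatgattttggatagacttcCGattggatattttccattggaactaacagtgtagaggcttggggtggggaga
The Mef2a and Mef2d windows held 21 and 19 CpG dinucleotides and 61.6% and 73.2% G and C. The Mef2c window held 1 CpG and 33.6%, and windows at its other 2 RefSeq starts held 6 and 4 CpG with 44.8% and 49.6%, whereas the median of 32851 windows of all genes was 6 CpG and 52.4%. The letters TATTTTTA, a MEF2 site, occurred on neither strand of the 9 windows of the 7 members with a RefSeq promoter entry, and 2.45% of all windows held them. The E-box letters CANNTG, read alike on both strands and common to HAND and other bHLH factors, occurred in 66.2% of all windows and in the Mef2c window shown, but not in those of Mef2a and Mef2d. These matches describe the windows only.

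All 10 factors were detected in every library, from 92 UMIs of Tbx5 in P5-2n to 3091 UMIs of Nkx2-5 in E16.5-2n. Levels are given as CPM, the UMIs of a gene per 1000000 UMIs of all CMs in a library. As each captured molecule is tagged once at its 3′ end, CPM was compared between genes without a correction for length. Tbx20, Nkx2-5 and Mef2a were the 3 highest in every library, at 111 to 211 CPM, Gata6 was the fourth, and Tbx5 was the lowest at 5.13 to 10.6 CPM. Below Gata6 the order changed with age: Mef2c stood above Mef2d at E16.5 and below it at P1. Among the 3 highest, neighbours that did not differ beyond counting error were Tbx20 and Nkx2-5 in E16.5-4n and P1-2n, Tbx20 and Mef2a in P1-4n, and all 3 in P5-2n. Lower down they were Hand2 and Meis1 in every library but P5-2n, with Gata4 beside them at P1, Mef2d and Gata4 in E16.5-4n, and Mef2c and Mef2d in both P5 libraries. Together the 10 genes held 896 and 902 CPM at E16.5 (2n and 4n), 755 and 767 at P1, and 628 and 636 at P5. A typical gene differed in the same direction: the median over all genes with at least 100 UMIs was a log2 ratio of -0.45 (2n) and -0.51 (4n) from E16.5 to P5, against -0.50 and -0.62 for the median of the 10 factors. Ratios are therefore given as measured and after subtraction of that median (relative log2 ratio), and a factor was counted when its relative ratio was past 1.5-fold. No test was run between conditions, each of which had 1 library, and the intervals are 95% limits of counting error only.

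**Figure D1:**
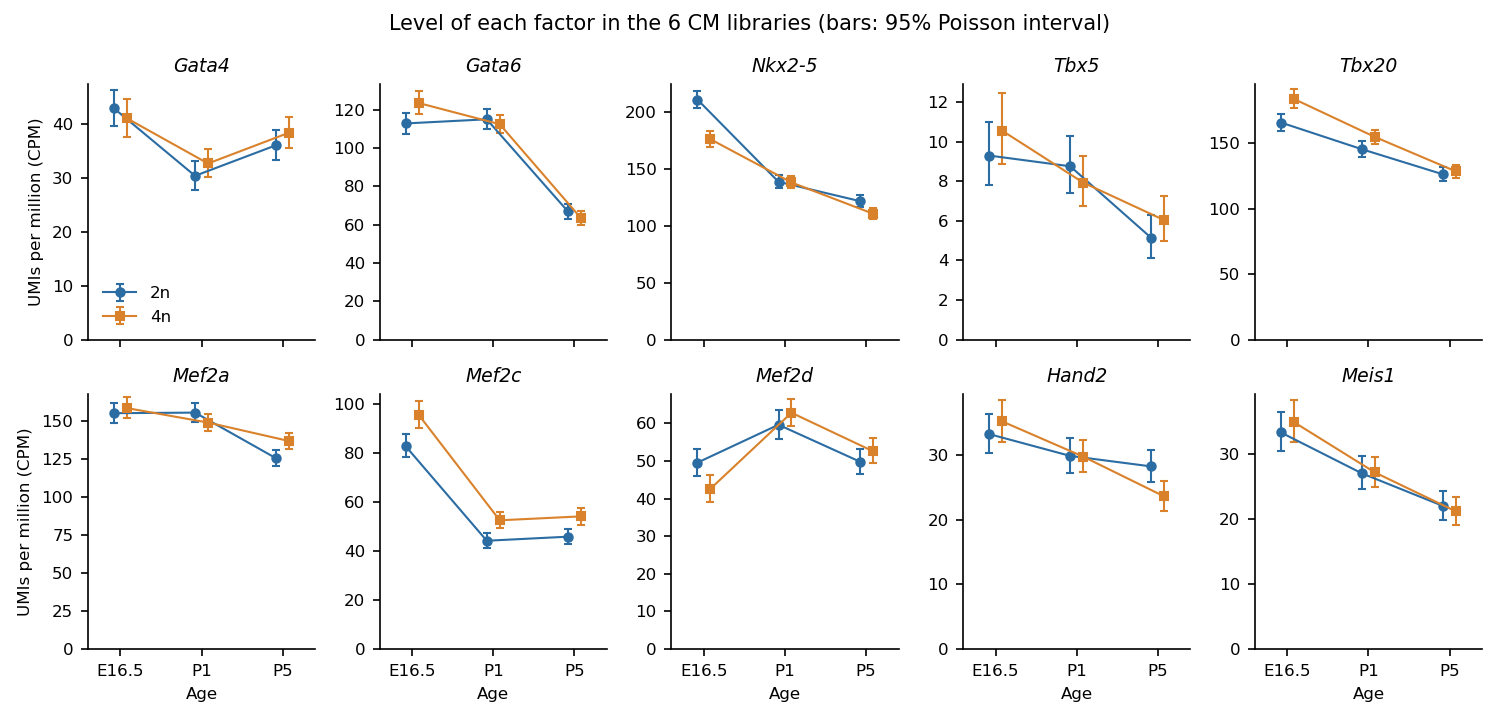
Level of each factor in CPM (vertical axis from 0) at each age (horizontal axis), with circles for 2n and squares for 4n libraries and bars for the 95% Poisson interval. Mef2c was at 82.7 and 95.5 CPM at E16.5 and between 44.1 and 54.1 afterwards, whereas Gata6 was at 112 to 124 CPM until P1 and at 66.9 and 63.5 at P5.

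From E16.5 to P1, 1 factor was counted, Mef2d, and it was higher at P1 in both ploidies. By the same rule 12.3% of 9391 genes were higher and 14.4% lower (26.7% in all) in 2n CMs, and 14.1% and 15.6% (29.7%) of 9958 genes in 4n CMs. From P1 to P5, Gata6 was lower in both ploidies and Tbx5 in 2n CMs, where 6.1% of 9230 genes were lower and 9.31% higher (15.4% in all). In 4n CMs 10.5% of 9764 genes were lower and 7.91% higher (18.4%). From E16.5 to P5, only Mef2d in 4n CMs was counted, as higher, against 17.4% of 9600 genes higher and 17.1% lower (34.4%), and none of the 10 in 2n CMs, against 17.2% and 15.5% (32.7%) of 9505 genes. The counts of 1 of 10 or none lay under the shares of all genes, and the 2 of 10 in 2n CMs at P5 near it. The 2 steps share the P1 library of each ploidy, so that a value that is off in that library moves both.

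**Figure D2:**
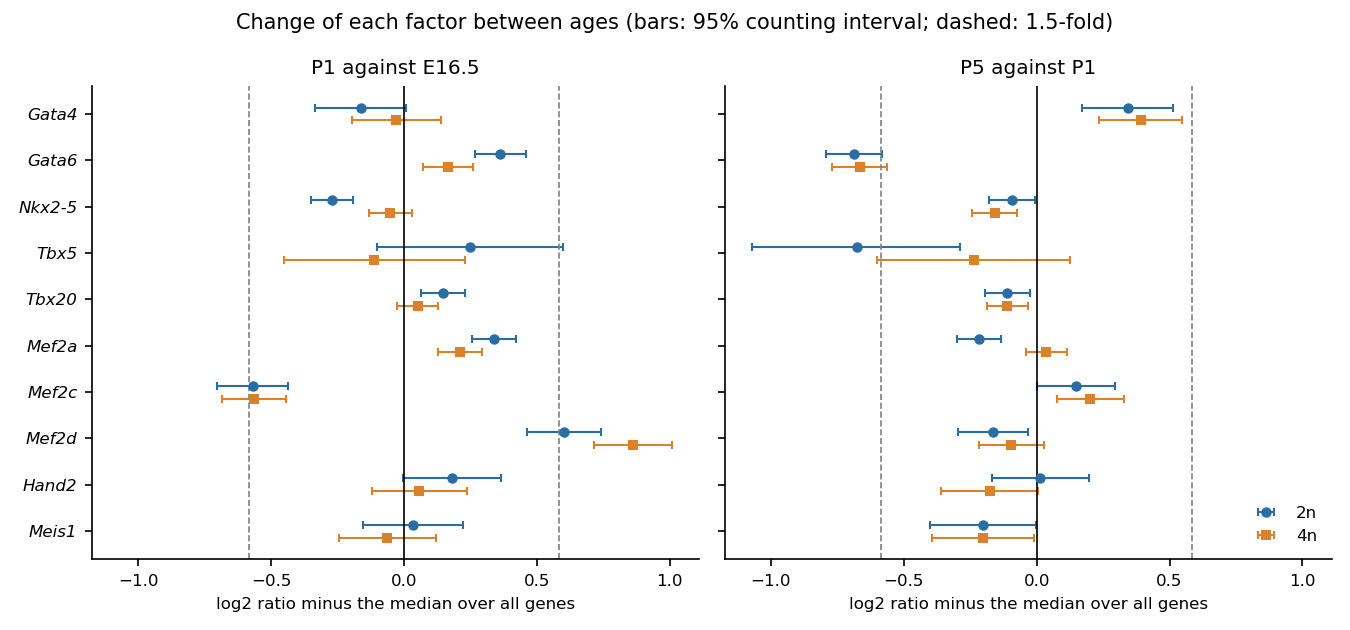
Relative log2 ratio of each factor (horizontal axis) from E16.5 to P1 and from P1 to P5, with circles for 2n, squares for 4n, bars for the 95% counting interval and dashed lines at 1.5-fold. Mef2d lies right of the line at P1 (0.60 and 0.86), with Mef2c on the other side at -0.57 and -0.56, and Gata6 lies left of it at P5 (-0.69 and -0.67).

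The levels of 2 MEF2 paralogs differed between E16.5 and P1 in opposite directions. Mef2c, the MEF2 gene that the forming heart cannot do without, was at 82.7 and 95.5 CPM at E16.5 (2n and 4n), then 44.1 and 52.5 at P1, and 45.8 and 54.1 at P5. Both E16.5 libraries stood above the 4 postnatal ones, and the intervals did not overlap. The log2 ratio of P1 to E16.5 was -0.91 (-1.04 to -0.77) in 2n and -0.86 (-0.98 to -0.74) in 4n CMs. With the shift of all genes taken off it was -0.57 and -0.56, just inside 1.5-fold (0.58). The log2 ratio of P5 to P1 as measured was 0.05 (-0.09 to 0.20) and 0.04 (-0.08 to 0.17), with intervals that held 0. Relative to all genes it was 0.15 (0.002 to 0.29) and 0.20 (0.08 to 0.33), slightly above the median gene in both ploidies.

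Mef2d, a more widely transcribed paralog, had another pattern. Its level was 49.6 and 42.6 CPM at E16.5, then 59.7 and 62.9 at P1, and 49.9 and 52.7 at P5 in 2n and 4n CMs, so that both P1 libraries were the highest of the 6. The P1 to E16.5 log2 ratio was 0.27 (0.13 to 0.41) in 2n and 0.56 (0.42 to 0.71) in 4n CMs, or 0.60 and 0.86 relative to all genes. The 2n value lay near the limit: without CMs that carried non-myocyte markers it was 0.57, so that no factor was counted in 2n CMs, while the 4n value was 1.07 and Mef2c, at -0.67, was then counted as lower. Among CMs without any UMI of the mitosis list the relative ratios of Mef2d were 0.53 and 0.76 and those of Mef2c -0.59 and -0.58, so that in 2n CMs Mef2c was counted in place of Mef2d. Mef2a, a main MEF2 factor of the postnatal heart, was the steadiest of the 10 in CPM, with a 1.26-fold range over the libraries. It was at 155 and 158 CPM at E16.5, then 155 and 149 at P1, and 125 and 137 at P5. Relative to all genes its P1 to E16.5 log2 ratio was 0.34 (0.26 to 0.42) in 2n and 0.21 (0.13 to 0.29) in 4n CMs. Its relative P5 to P1 ratio was -0.22 (-0.30 to -0.13) and 0.04 (-0.04 to 0.11).

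Shares within a family need no scaling between libraries. Of all MEF2 UMIs, Mef2c made up 28.8% (95% Clopper-Pearson interval 27.4 to 30.2) and 32.2% (30.8 to 33.7) at E16.5, then 17.0% (15.9 to 18.2) and 19.9% (18.8 to 21) at P1, and 20.7% (19.5 to 22.0) and 22.2% (21 to 23.5) at P5. Mef2d made up 17.3% and 14.4%, then 23.0% and 23.8%, and then 22.6% and 21.6%. The 2 paralogs therefore changed rank between E16.5 and P1 in both ploidies, with Mef2a at 53.4% to 59.9% throughout. Without the CMs that carried non-myocyte markers, Mef2c held 28.6% and 32.7% at E16.5 and 16.9% and 18.0% at P1, so that the share was as different between ages there as in all CMs.

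**Figure D3:**
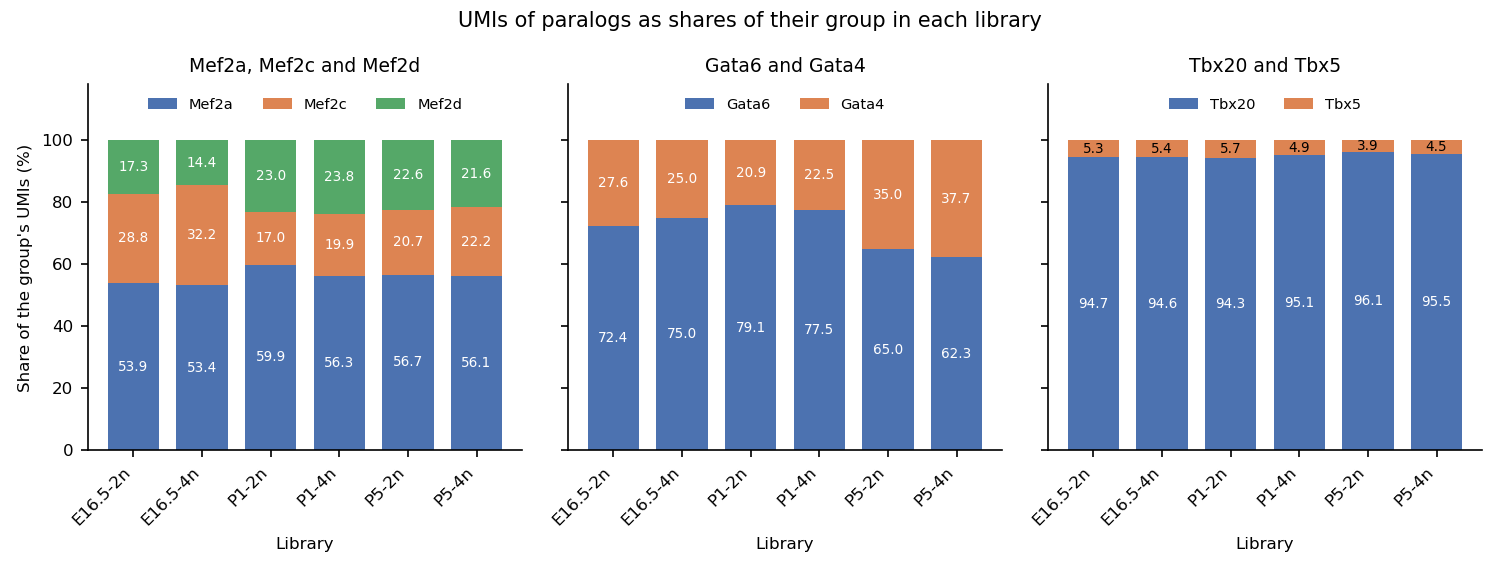
Shares of UMIs (vertical axis, percent of the group's UMIs in a library) held by each paralog of the MEF2, GATA and T-box groups in the 6 libraries (horizontal axis), as stacked bars. The Mef2c share was 28.8% and 32.2% at E16.5 and 17.0% to 22.2% afterwards, and the Gata4 share was 20.9% to 27.6% until P1 and 35.0% and 37.7% at P5.

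Among the GATA factors, zinc-finger proteins that bind cardiac promoters with T-box and NK2 partners, Gata6 was the more abundant. It was at 113 and 124 CPM at E16.5, then 115 and 112 at P1, and 66.9 and 63.5 at P5 in 2n and 4n CMs. The first 4 libraries lay together and both P5 libraries lay below them. Relative to all genes the P1 to E16.5 log2 ratio of Gata6 was 0.36 (0.27 to 0.46) in 2n and 0.16 (0.07 to 0.26) in 4n CMs. The log2 ratio of P5 to P1 was -0.78 (-0.89 to -0.68) in 2n and -0.83 (-0.93 to -0.72) in 4n CMs, or -0.69 and -0.67 relative to all genes. It was -0.66 and -0.75 without CMs with non-myocyte markers, and -0.59 and -0.59 in CMs without mitosis UMIs, which is at the limit of 1.5-fold.

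Gata4 had a pattern over the libraries unlike that of Gata6. Its levels were 42.9 and 41.1 CPM at E16.5, then 30.4 and 32.7 at P1, and 36.1 and 38.4 at P5, with the lowest values in the P1 libraries of both ploidies. The P5 to P1 log2 ratio was 0.25 (0.08 to 0.42) and 0.23 (0.08 to 0.39), and the P5 to E16.5 ratio of -0.25 in 2n and -0.10 in 4n CMs changed sign to 0.20 and 0.41 relative to all genes. As a share of the UMIs of both GATA genes, Gata4 held 27.6% (25.7 to 29.4) and 25.0% (23.1 to 26.8) at E16.5, then 20.9% (19.3 to 22.6) and 22.5% (21 to 24.1) at P1, and 35.0% (32.9 to 37.3) and 37.7% (35.5 to 39.9) at P5. The P5 shares were the 2 highest of the 6, and without CMs with non-myocyte markers they were 35.1% and 38.0%.

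Nkx2-5, the NK2 homeobox factor that marks the cardiac lineage from its start, was at 211 and 176 CPM in the 2n and 4n libraries of E16.5, then 139 and 138 at P1, and 122 and 111 at P5. Each age lay below the one before in both ploidies. The log2 ratio of P5 to E16.5 was -0.79 (-0.87 to -0.71) in 2n and -0.67 (-0.76 to -0.58) in 4n CMs, of which -0.34 and -0.16 remained after the shift of all genes was taken off. Among CMs without mitosis UMIs these relative ratios of Nkx2-5 were -0.30 in 2n and 0.07 in 4n CMs, so that no relative decrease was left in 4n CMs. Tbx20, a T-box factor needed to keep the grown CM working, had 166 and 184 CPM at E16.5, then 146 and 155 at P1, and 126 and 129 at P5. It was also lower at each later age, and its relative ratios from E16.5 to P5 were 0.06 and -0.01, so that it moved with the median gene.

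Tbx5, a T-box partner of Nkx2-5 and Gata4 that patterns the left ventricle and conduction system, was at 9.30, 10.6, 8.76, 7.93, 5.13 and 6.03 CPM in the 6 libraries. Both P5 libraries were the lowest. The P5 to P1 log2 ratio was -0.77 (-1.16 to -0.38) in 2n and -0.40 (-0.76 to -0.03) in 4n CMs, or -0.68 and -0.24 relative to all genes. The 2n and 4n intervals overlapped, and only 92 to 156 UMIs stood behind each level. Tbx5 held from 3.90% (3.16 to 4.77) of the UMIs of both T-box genes in P5-2n to 5.68% (4.81 to 6.65) in P1-2n, and the intervals of these 2 libraries did not overlap.

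Hand2, a bHLH factor best known for the right ventricle and outflow tract, was at 33.2, 35.2, 29.9, 29.7, 28.2 and 23.6 CPM in the same order of libraries. The lowest value was that of P5-4n, and the relative ratio from E16.5 to P5 was 0.21 (0.03 to 0.40) in 2n and -0.07 (-0.26 to 0.12) in 4n CMs. Meis1 was at 33.4, 35.0, 27.1, 27.2, 22.0 and 21.2 CPM. It was lower at each later age in both ploidies, with log2 ratios of P5 to E16.5 of -0.60 (-0.79 to -0.40) and -0.72 (-0.92 to -0.52). With the shift of all genes taken off, -0.15 (-0.34 to 0.05) and -0.21 (-0.41 to -0.02) remained, so that most of the difference was shared with the median gene. Among CMs without mitosis UMIs these relative ratios of Meis1 were 0.04 in 2n and 0.07 in 4n CMs. Between P1 and E16.5 the relative ratios of Meis1 were 0.03 and -0.06, both with intervals that held 0.

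Between the ploidies the factors differed little. None of the 10 was past 1.5-fold in 4n against 2n CMs at any age, whereas 8.65% of 9625 genes were higher and 1.43% lower (10.1% in all) at E16.5, 8.75% and 0.425% (9.18%) of 9653 at P1, and 3.68% and 2.01% (5.69%) of 9349 at P5. Mef2c was the only factor with a log2 ratio above 0 beyond its interval at each age, at 0.21 (0.09 to 0.32), 0.25 (0.11 to 0.39) and 0.24 (0.10 to 0.37). Without CMs with non-myocyte markers, which were far more frequent in P1-4n than in P1-2n, Mef2c was at 0.25 (0.12 to 0.38), 0.15 (-0.02 to 0.31) and 0.25 (0.11 to 0.40), so that the P1 interval held 0. In CMs without mitosis UMIs it was 0.16 (-0.04 to 0.37), 0.18 (0.02 to 0.34) and 0.16 (-0.05 to 0.36). Nkx2-5 was lower in 4n CMs at E16.5, with -0.26 (-0.34 to -0.18), and at P5, with -0.14 (-0.22 to -0.05), but not at P1, with -0.01 (-0.09 to 0.07). The E16.5 value was -0.17 relative to all genes without CMs with non-myocyte markers, against -0.29 with them, and -0.43 in CMs without mitosis UMIs. At P1 the log2 ratio of Nkx2-5 was 0.10 (0.01 to 0.20) without CMs with non-myocyte markers and 0.05 (-0.04 to 0.14) in CMs without mitosis UMIs. At P5 it was -0.15 (-0.24 to -0.05) and -0.10 (-0.23 to 0.03) in the same order. Hand2 was lower in 4n CMs at P5, with -0.26 (-0.45 to -0.07), but not at E16.5, with 0.08 (-0.10 to 0.27), or P1, with -0.01 (-0.18 to 0.17). The P5 value of Hand2 was -0.33 (-0.54 to -0.13) without CMs with non-myocyte markers and -0.49 (-0.78 to -0.20) in CMs without mitosis UMIs. Mef2d was lower in 4n CMs at E16.5, with -0.22 (-0.38 to -0.06). In the same 2 sets of CMs it was -0.29 (-0.48 to -0.11) and -0.16 (-0.43 to 0.11). Tbx20 was higher at E16.5, with 0.15 (0.07 to 0.23), and P1, with 0.09 (0.01 to 0.17). Gata6 was higher at E16.5, with 0.13 (0.03 to 0.23). Without CMs with non-myocyte markers these Tbx20 and Gata6 intervals held 0. In CMs without mitosis UMIs the E16.5 values were 0.32 for Tbx20 and 0.19 for Gata6. Meis1 stood at 0.07 (-0.12 to 0.25), 0.01 (-0.18 to 0.19) and -0.06 (-0.26 to 0.15), so that no difference of Meis1 between 2n and 4n CMs was detectable at this depth. The mitosis list and the fibroblast list were higher in the 4n library of each age, as given above, and how they bear on these small ratios was tested only by the 2 restrictions of cells.

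Because each library holds cycling and non-cycling CMs, the factors were also compared within libraries, with the 6 libraries as replicates, of which those of 1 age share litters. CMs with at least 3 UMIs of the mitosis list (137 to 2469 CMs a library) were set against CMs with none. This rule also sorts CMs by depth: in P1-2n the 137 marked CMs held 489740 UMIs and the 6770 unmarked ones 1.46e+07. Results at equal depth, after thinning, are given below. Mef2c was higher in mitosis-marked CMs in 6 of 6 libraries, at 91.6 against 79.7 CPM in E16.5-2n, 98.7 against 89.3 in E16.5-4n, 53.1 against 42.6 in P1-2n, 63.1 against 48.3 in P1-4n, 65.6 against 42.2 in P5-2n and 65.1 against 47.1 in P5-4n. The mean difference was 14.6 CPM ± 5.31 (SD, n = 6). Over all libraries the observed UMIs were 1.23 times (95% Poisson interval 1.17 to 1.28) those expected from the unmarked CMs of the same library. Such intervals of observed over expected UMIs, here and below, hold the counting error of the marked CMs only. The expectation is taken as fixed, so that they are narrower than the full counting error. Mef2a, Mef2d and Gata6 were lower in marked CMs in 6 of 6 libraries, at 0.890, 0.865 and 0.892 times the expected UMIs, with mean differences of -15.2 CPM ± 6.84, -10.4 CPM ± 10.3 and -14.1 CPM ± 8.64 (SD, n = 6). The Mef2d difference was -31.1 CPM in P1-2n, the library with only 137 marked CMs, and -3.79 to -9.01 CPM in the other 5.

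Each of these 4 factors reached p = 0.03125 in an exact two-sided sign-flip permutation test, the smallest p that 6 libraries allow. After Benjamini-Hochberg adjustment over all 11412 genes with at least 100 UMIs the p was 0.121 for each, the smallest adjusted p in this contrast, so that no factor passed the adjusted threshold of 0.05. In the same contrast 17.3% of all genes were higher and 8.53% lower in 6 of 6 libraries, against 1 and 3 of the 10 factors. Within the families, which need no scaling, Mef2c held a larger share of MEF2 UMIs in mitosis-marked CMs in 6 of 6 libraries (28.2% against 21.4% on average, difference 6.80 points ± 1.47, SD, n = 6), and Gata4 a larger share of GATA UMIs (30.3% against 27.1%, 3.18 points ± 0.689, SD, n = 6). The level of Gata4 itself was at 1.05 times the expected UMIs (0.98 to 1.11), higher in 3 libraries and lower in 3, whereas Gata6 was lower in all 6. Meis1 was at 1.20 times the expected UMIs (1.12 to 1.29) but higher in only 4 of 6 libraries, with 39.1 against 31.4 CPM in E16.5-2n and 38.7 against 24.9 in P1-4n, and 23.0 against 23.4 and 21.3 against 21.3 in P5-2n and P5-4n. Its permutation test gave an exact p of 0.188. Tbx5 was at 1.29 times the expected UMIs (1.13 to 1.47) and higher in 5 of 6 libraries, with an exact permutation p of 0.188. The Tbx5 counts were low, with 3 UMIs in the marked CMs of P1-2n, the exception, and 90 in those of E16.5-4n. Meis1 was higher in 6 of 6 libraries with all deposited cells (1.20 times), without CMs with non-myocyte markers (1.20 times) and when a CM needed 5 UMIs to be marked (1.23 times), and in 5 of 6 when it needed 2 and without the 5% of CMs with most UMIs. Gata6 was no longer lower in all 6 when a CM needed 5 UMIs, nor Mef2d without the 5% of CMs with most UMIs. After each CM was thinned to 1000 UMIs, Mef2c and Meis1 were both higher in 6 of 6 libraries, at 1.32 and 1.35 times. Gata6 was then lower in all 6, and Mef2a and Mef2d were no longer lower in all. Marks were set again on the thinned counts, which left 0.512% of 6640 CMs marked in P1-2n and 2.21% of 4393 in P5-2n. The direction of Meis1 in these libraries therefore rested on very few UMIs.

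**Figure D4:**
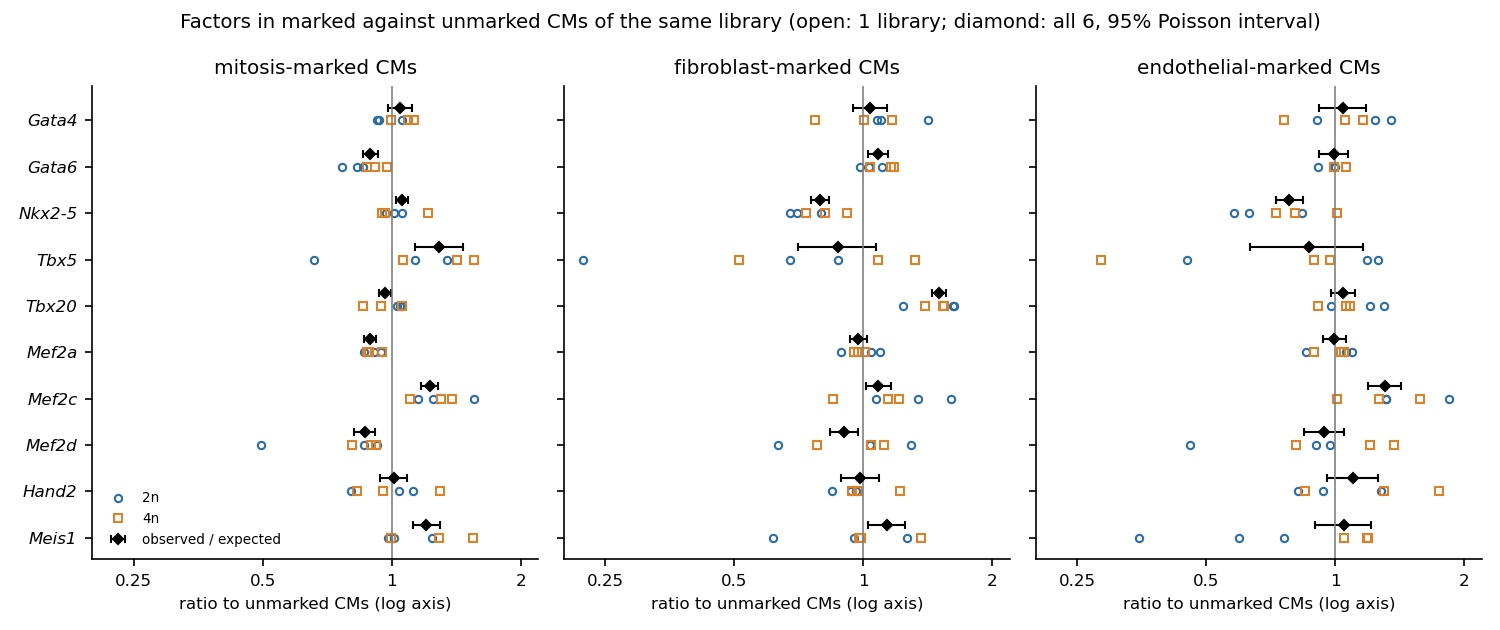
Ratio of each factor in marked CMs to unmarked CMs of the same library (horizontal log axis), for CMs with at least 3 UMIs of mitosis, fibroblast or endothelial genes, with open symbols for single libraries (circles 2n, squares 4n) and diamonds for observed over expected UMIs over all 6 with the 95% Poisson interval. The interval takes the expected UMIs as fixed and leaves out their counting error. Mef2c lies right of 1 in every library for mitosis- and endothelial-marked CMs, and Tbx20 lies right of 1 (1.5 over all) and Nkx2-5 left of it (0.793) in every library for fibroblast-marked CMs.

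RNA of other cells can enter a CM droplet, and several of the factors are also transcribed outside CMs. CMs with at least 3 UMIs of the fibroblast list (96 to 1152 a library) were set against CMs without marks of any non-myocyte list. Marked CMs had more UMIs each: in E16.5-2n the 96 marked CMs held 501597 UMIs and the 5551 unmarked ones 1.39e+07. Whether a mark came from stray RNA or from a further cell in the droplet was not tested. Tbx20 was higher in fibroblast-marked CMs in 6 of 6 libraries, at 265 against 163 CPM in E16.5-2n, 257 against 167 in E16.5-4n, 231 against 143 in P1-2n, 207 against 134 in P1-4n, 154 against 125 in P5-2n and 173 against 124 in P5-4n. The observed UMIs were 1.5 times (1.45 to 1.56) the expected ones. Nkx2-5 was lower in all 6, at 0.793 times (0.754 to 0.833), from 144 against 213 CPM in E16.5-2n to 103 against 112 in P5-4n. Both reached the smallest exact permutation p of 0.03125, and 0.0973 after adjustment over the 11412 genes, and 24.8% of all genes were higher and 7.31% lower in 6 of 6 libraries. Without E16.5-4n the count of factors that went one way in every library was 4 in place of 2.

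In endothelial-marked CMs (42 to 430 a library) Mef2c, which endothelium also transcribes, was higher in 6 of 6 libraries, at 1.30 times the expected UMIs (1.19 to 1.42). The values ran from 98.5 against 97.8 CPM in E16.5-4n to 80.4 against 43.6 in P5-2n, and the exact permutation p of 0.03125 became 0.115 after adjustment over all genes, with 20% of all genes higher and 7.07% lower in 6 of 6 libraries. Nkx2-5 was at 0.782 times and lower in 5 of 6 libraries, and P5-4n was the exception with 113 against 112 CPM. Mef2c was higher in only 5 of 6 libraries when a CM needed 2 UMIs to be marked and without the 5% of CMs with most UMIs, and in 4 of 6 after thinning of each CM to 1000 UMIs. Without P5-4n the count of factors that went one way in every library was 3 in place of 1. Mef2c was also compared between mitosis-marked and other CMs after all CMs with non-myocyte markers were left out, and it was again higher in 6 of 6 libraries, at 1.19 times.

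Most single CMs showed few of the factors. The share of CMs with at least 1 UMI, as deposited, ran from 25.5% to 39.7% for Nkx2-5, 28.0% to 46.8% for Mef2a and 25.9% to 43.3% for Tbx20, and from 1.95% to 3.24% for Tbx5. Such shares follow depth, which differed between libraries, so each CM was thinned to 1000 UMIs, with 906 shallower CMs left out, 700 of them in P1-2n. After thinning, the mean number of the 10 factors with a UMI per CM was 0.851 and 0.835 at E16.5, then 0.741 and 0.745 at P1, and 0.590 and 0.597 at P5, while as deposited it was 1.85 and 1.92, 1.44 and 2.33, and 2.03 and 2.44. The deposited numbers were lowest in P1-2n, the shallowest library, and highest in P5-4n, the deepest, whereas the thinned ones were lower at each later age, as was the summed CPM.

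At the same thinned depth, Mef2c was seen in 8.06% and 9.02% of CMs at E16.5, then 4.26% and 5.18% at P1, and 4.46% and 5.28% at P5. Gata6 was seen in 11.3%, 11.6%, 12.0%, 11.6%, 6.19% and 5.97% of CMs in the order of the libraries. Both splits between ages were those of the CPM values. Shares could not be set against a cell type that lacks the factors: 191 immune-marked CMs (median 4074 UMIs, against 2546 in the 26871 unmarked CMs) passed the CM filter and held 25840 CPM of the 4 CM genes, and after thinning 13.1% of them (8.65 to 18.7) had a UMI of Nkx2-5, against 14.5% of unmarked CMs. The 423 cells that failed the filter still held 10830 CPM of those genes. A share is therefore not read as a share of expressing cells, and fewer CMs with a transcript and fewer transcripts per CM cannot be told apart in the summed levels.

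Genes that work with the factors were compared by list. Of 19 other cardiac transcription factors, 13 had enough UMIs from E16.5 to P5 in 2n CMs, of which 3 were higher, 4 lower and 6 neither, and 14 in 4n CMs, of which 2 were higher, 6 lower and 6 neither. The list median was 0.28 and -0.35 relative to all genes. Hand1, the left ventricular relative of Hand2, had 167 (2n) and 131 (4n) UMIs at E16.5 but 2 UMIs in each P5 library, a log2 ratio of -6.68 (-9.73 to -4.80) and -6.53 (-9.59 to -4.65), whereas Hand2 had -0.24 and -0.58. Tbx18, a T-box repressor known from the sinus node and epicardium, was at -2.85 and -2.70, from 23.7 and 29.2 CPM at E16.5 to 3.29 and 4.51 at P5. Hopx, a homeodomain protein that restrains serum response factor, stood at the other end in 2n CMs with 0.70 (0.57 to 0.82).

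Of the 8 TALE homeobox partners of Meis1, with which it binds DNA as a complex, 5 had enough UMIs from E16.5 to P5 in each ploidy and none was counted. Meis2, the closest paralog, was at 37.3, 41.6, 26.2, 28.2, 20.8 and 21.2 CPM, lower at each later age like Meis1 in the same libraries. Of 14 cofactors and class IIa deacetylases, 13 were compared and 4 were higher in 2n and 3 in 4n CMs, with none lower. Smyd1, a muscle methyltransferase and known target of MEF2C, was at 109, 81.0, 126, 114, 154 and 144 CPM. Hdac5, a deacetylase that silences MEF2 targets, had a log2 ratio of -1.0 (-1.19 to -0.81) in 2n CMs. Relative to all genes the Hdac5 ratio was -0.55, inside 1.5-fold, so that it was not counted. Hdac7 of the same list went the other way in 2n CMs, at 0.58 (0.07 to 1.09) from 52 and 95 UMIs. It was at 1.03 relative to all genes and counted as higher. Of 18 textbook target genes 16 were compared, with 7 higher and 3 lower in 2n and 10 and 3 in 4n CMs. Over the same step, 17.2% of all genes were higher and 15.5% lower between the 2n libraries. Between the 4n libraries, 17.4% were higher and 17.1% lower. The 3 lower target genes of 16 lay near these shares, whereas the higher ones made up more of their list. Whether a list differed from all genes was not tested. Myh6, the adult myosin heavy chain, was at 352, 295, 2528, 2267, 2511 and 2924 CPM, while the summed level of the 10 factors was lower at each later age.

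Patterns were compared over the 6 libraries by the root mean square difference of log2(CPM + 1), each gene centred on its mean, among 9618 genes with at least 300 UMIs. For Mef2c the most alike were Morf4l2 (0.01) and Ostc (0.03), and 1280 genes lay within 0.2. For Mef2d they were Tmem106b and Atf7 (0.04 each), with 1069 genes within 0.2, and for Gata6 Mta1 and Acvr1b (0.05 each), with 573, the fewest of the 10. Nkx2-5 was most like Zfp655 (0.03) and Bpnt1 (0.04), Gata4 most like Sulf2 and Setd7 (0.03 each), Tbx5 most like Suv420h2 (0.03) and Mttp (0.04), and Hand2 most like Fam149b (0.04) and Dpm1 (0.05). Tbx20, Mef2a and Meis1 lay among many alike genes: 3494, 3129 and 3232 within 0.2, led by the ribosomal genes Rps25 and Rps27a for Tbx20, Acbd6 and Reps1 for Mef2a, and Rab6a and Ccar2 for Meis1 (0.02 to 0.03). Gata6 thus had the pattern that the fewest genes resembled, and 6 libraries that share depth and litters allow no test of it.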

How the data were processed

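Libraries of 3′ single-cell RNA sequencing (10x Chromium, v2 chemistry) were used, 6 in all, 1 for each age and ploidy. The authors aligned the reads to the mm10 genome with STAR within Cell Ranger (version not given in the sources used here) and deposited, for the called cells, whole UMI counts without normalization; the labels also name Seurat 2.3.0. A pair of deposited tables, which hold the authors' own comparison of G2/M CMs and a list of symbols, were not used. Counts were summed over CMs and divided by all UMIs of those CMs to give CPM (UMIs per 1000000). As each condition had 1 library, no test was run between conditions: log2 ratios carry the exact 95% Clopper-Pearson interval of the binomial split of UMIs, levels a Poisson interval and shares a Clopper-Pearson interval, all for counting error only. A ratio was counted past 1.5-fold after subtraction of the median over genes with at least 100 UMIs. Marked and unmarked CMs were compared within libraries by an exact two-sided sign-flip permutation test over 6 libraries. The adjustment planned over the 30 tests of the factors was replaced by Benjamini-Hochberg over all genes. The libraries were pools of several litters, so that the spread between them does not measure that between animals. Thinning drew 1000 UMIs per CM without replacement (seed 7). No doublet caller was run, and leaving out the 5% of CMs with most UMIs was an alternative. Scripts were tested on simulated Poisson counts: in P1 against E16.5 of 2n CMs all of 67 genes changed 2-fold were past 1.5-fold, over 9396 genes. In the other comparisons 98.5% or 100% were. The simulation held no variation between libraries, so that it tested the scripts under counting error only. The text names all 10 factors, the 2 highest and 2 lowest genes of each list by rank among those compared from E16.5 to P5 (of which the text gives a selection), and the 2 genes most like each factor. The factors, the lists and the alternatives were chosen with earlier results of these data known. Motifs were searched on both strands of RefSeq windows. Python 3.11.15, numpy 2.4.6, scipy 1.17.1, pandas 2.3.3 and matplotlib 3.10.9 were used. Depth was 13213992 to 19714177 UMIs per library, which gave Tbx5 92 to 156 UMIs and Nkx2-5 2042 to 3091.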

Additional observations from a re-analysis of the deposited data

Results flagged for a closer look

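Of the differences between marked and unmarked CMs, a single library stood apart from the other 5 in 2 of 30 sets of 6 values, where chance gives about 1 in 20. The Nkx2-5 level in mitosis-marked minus unmarked CMs was 33.8 CPM in E16.5-4n, with 191 CPM in marked and 157 in unmarked CMs, and between -7.48 and 7.80 CPM in the other libraries. The Mef2d level in mitosis-marked minus unmarked CMs was -31.1 CPM in P1-2n, which had 137 marked CMs.

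The relative log2 ratio of Mef2a in 4n against 2n CMs was -0.11 at P1 and 0.11 at P5, with counting intervals on opposite sides of 0. Without CMs with non-myocyte markers it was -0.02 (-0.11 to 0.07) at P1, an interval that held 0, and 0.09 (0.002 to 0.18) at P5. In CMs without mitosis UMIs it was -0.10 at P1 and 0.27 at P5. With 1 library each, the difference between the ages was not tested.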

How the results depend on the processing

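No counted factor changed direction under any alternative. Main counts of factors past 1.5-fold were 1 (P1 against E16.5, 2n and 4n), 2 (P5 against P1, 2n) and 1 (4n), and 0 between ploidies. At 2-fold each was 0. For P1 against E16.5 in 2n CMs the count was 2 when CMs were thinned to 1000 UMIs (Mef2c joined at -0.63 and the factor Tbx5 at 0.80, while Mef2d was at 0.58), 0 without CMs with non-myocyte markers and 2 with no subtraction of the median; in 4n CMs it was 2 with the mean of each CM's CPM, without the 5% of CMs with most UMIs, and without CMs with non-myocyte markers. With no subtraction of the median, Mef2d was no longer counted at P1 against E16.5, at 0.27 in 2n and 0.56 in 4n CMs. The factors counted in 2n CMs were then Nkx2-5 (-0.61) and Mef2c (-0.91). In 4n CMs Mef2c (-0.86) took the place of Mef2d, so that the count stayed at 1. For P5 against P1 in 2n CMs the count was 1 after thinning. The ratios of Gata6 and Tbx5 were then both at -0.88, further past 1.5-fold than the main values of -0.69 and -0.68. To be counted, a factor also had to reach the minimum number of UMIs set for all genes. Thinned Tbx5 was seen in only 0.99% of CMs in P1-2n and 0.50% in P5-2n. The lower count is therefore not read as a loss of the Tbx5 difference. Of the factors going one way in every library, 2 in fibroblast-marked CMs became 1 after thinning (Tbx20) and ranged from 2 to 4 when a library was left out; 1 in endothelial-marked CMs (Mef2c) became 2 others after thinning (Nkx2-5 and Tbx5) and 2 others without the top 5% (Nkx2-5 and Mef2a), with Mef2c lost in both, and 0 and 2 (Mef2c and Nkx2-5) when 2 or 5 UMIs made a mark, and ranged from 1 to 3 when a library was left out. The thinned endothelial-marked CMs held no Tbx5 UMI (0 times the expected), so that its direction there cannot be read as a difference. The causes were not tested. The other 103 counts were within 1.5 times the main ones, and 700 ratios of single factors stayed within their counting error while 70 did not, 28 of them with no subtraction of the median. The restriction to CMs without mitosis UMIs was chosen after seeing the data. The labels give no replicate numbers. The 2n and 4n libraries of an age share litters, and a fit of ploidy with age as a block was not run. Depth limits Tbx5 most, with 92 to 156 UMIs a library.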
